A study of Mus musculus with 9 samples.

Results

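DNA replication genes were measured in alveolar macrophages with and without Suz12, as a group of 52 genes of S phase and DNA replication chosen by name. They were the rows of the deposited count table whose Entrez identifiers map to the listed symbols. All 52 were found among the 27179 genes of the table, and all 52 were among the 12840 genes with enough counts to be tested. The measured values had no part in the choice, although the list was drawn up with earlier results of these libraries known.

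The groups were Suz12 cKO, a conditional knockout of Suz12 (5 libraries), and wild type (4 libraries). Both groups came from the lungs of C57BL/6 mice aged 1 week, and the cells were fetal-derived alveolar macrophages purified by fluorescence-activated sorting. Polyadenylated RNA was sequenced in bulk, and within a group the libraries are called biological replicates in the series text. The sources used here give no Cre driver, deleted exons, sex or pooling of mice, and do not say whether wild type mice carried a floxed allele or Cre. Suz12 is a core subunit of Polycomb repressive complex 2, which methylates histone H3 at repressed genes.

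A cell copies its genome once in each S phase. Before S phase, the origin recognition complex with CDC6 and CDT1 loads the MCM2-7 helicase onto DNA, and CDC45 and GINS then switch that helicase on. DNA polymerase alpha with primase lays down primers, the replication factor C complex loads the sliding clamp PCNA, and polymerases delta and epsilon extend the strands. Many of these genes are transcribed at the entry to S phase under E2F factors, so their transcripts are read as a mark of dividing cells. Alveolar macrophages descend from fetal monocytes, and they multiply in the lung around birth. In bulk RNA, fewer cells in S phase and less replication RNA in each cell cannot be told apart.

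The promoters of the 4 genes that were lower in cKO libraries in both fits described here are shown first, with those of Rfc3 and Mcm6, which were added after their values were seen as examples that hold E2F-type sequences. Each runs 5′ to 3′ on the gene's own strand over 250 bases before and 50 after the annotated start, from RefSeq on GRCm38.p6. Capitals mark matches, on either strand, to the E2F letters TTTCCCGC, TTTCGCGC, TTTGCCGC or TTTGGCGC, to the same letters without the first T, or to CCAAT. Neighbouring matches can share bases and then run together.
Pcna, chr2:132253131-132253430, strand minus: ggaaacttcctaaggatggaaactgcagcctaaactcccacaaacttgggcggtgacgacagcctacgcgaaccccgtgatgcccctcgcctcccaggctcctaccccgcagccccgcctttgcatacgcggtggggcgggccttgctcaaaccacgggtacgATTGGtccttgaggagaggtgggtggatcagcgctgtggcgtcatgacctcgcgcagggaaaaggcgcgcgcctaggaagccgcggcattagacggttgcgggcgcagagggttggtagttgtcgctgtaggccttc
Orc6, chr8:85299382-85299681, strand plus: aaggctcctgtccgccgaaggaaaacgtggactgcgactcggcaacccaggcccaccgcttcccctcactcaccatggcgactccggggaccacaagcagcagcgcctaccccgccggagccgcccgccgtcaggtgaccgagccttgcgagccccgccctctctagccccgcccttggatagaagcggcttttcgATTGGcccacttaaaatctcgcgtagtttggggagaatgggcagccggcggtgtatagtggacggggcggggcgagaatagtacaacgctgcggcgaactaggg
Tyms, chr5:30073576-30073875, strand minus: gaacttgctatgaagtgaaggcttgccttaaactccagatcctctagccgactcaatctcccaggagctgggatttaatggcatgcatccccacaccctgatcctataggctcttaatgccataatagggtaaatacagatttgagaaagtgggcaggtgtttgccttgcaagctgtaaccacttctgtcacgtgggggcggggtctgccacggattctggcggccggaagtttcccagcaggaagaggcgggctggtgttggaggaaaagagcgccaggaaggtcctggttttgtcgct
Dut, chr2:125247265-125247564, strand plus: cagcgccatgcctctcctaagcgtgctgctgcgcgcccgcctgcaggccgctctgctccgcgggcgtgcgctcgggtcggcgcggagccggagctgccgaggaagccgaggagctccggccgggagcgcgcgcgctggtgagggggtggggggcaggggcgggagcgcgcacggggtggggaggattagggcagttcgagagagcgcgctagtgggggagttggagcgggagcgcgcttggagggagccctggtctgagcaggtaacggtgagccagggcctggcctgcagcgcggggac
Rfc3, chr5:151651159-151651458, strand minus: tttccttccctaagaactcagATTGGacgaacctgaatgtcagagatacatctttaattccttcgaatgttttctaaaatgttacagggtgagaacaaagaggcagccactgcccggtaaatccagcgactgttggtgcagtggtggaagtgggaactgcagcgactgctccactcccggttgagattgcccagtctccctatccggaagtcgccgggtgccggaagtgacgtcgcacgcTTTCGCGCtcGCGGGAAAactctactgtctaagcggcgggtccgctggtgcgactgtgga
Mcm6, chr1:128359656-128359955, strand minus: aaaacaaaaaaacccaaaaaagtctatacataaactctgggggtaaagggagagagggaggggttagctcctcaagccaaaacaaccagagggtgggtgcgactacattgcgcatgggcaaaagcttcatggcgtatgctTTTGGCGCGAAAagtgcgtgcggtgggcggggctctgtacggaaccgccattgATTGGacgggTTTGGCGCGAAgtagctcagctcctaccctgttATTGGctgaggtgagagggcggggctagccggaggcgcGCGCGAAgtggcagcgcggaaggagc

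RefSeq held a promoter for 41 of the 52 genes, and Pole, Gins2, Rfc2, Mcm4, Gins4, Gins1, Exo1, Prim2, Tipin, Atad2 and Ccne2 had none in the table. An 8-base E2F match was present in 17 of the 41 (41.5%), against 4.84% of tested genes with a promoter and 2.6% of all promoters of the same length in the table. With the 7-base forms, 28 of 41 (68.3%) had a match, against 19.4% of tested genes and 10.9% of all promoters. The CCAAT letters were found in 26 of 41 (63.4%), against 43.4% of tested genes and 41.1% of all promoters. Of the 6 genes lower in cKO libraries that had a promoter in the table, 1, Rfc3, had an E2F match of either length and 4 had CCAAT. The CCAAT letters lay 87 bases before the start of Pcna and 54 bases before that of Orc6, and neither motif was found in the windows of Tyms and Dut. The Dut window is that of an inner start, 267 bases past the first base of the gene, and lies wholly inside it, so the sequence before the gene was not searched. Of the 46 windows of these 41 genes, 11, that of Dut included, lay wholly inside the gene. Among the genes with such a window, Fen1, Lig1 and Uhrf1 also had a window at the first base of the gene. Mcm7 also had a window that began before the gene. In Mcm6, whose level did not pass the test, 8-base E2F matches began 110, 106 and 47 bases before the start.

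Suz12 itself (Entrez 52615) had 11.9, 14.7, 21.8, 13.1 and 18.5 counts per 1e6 of the scaled library (CPM) in cKO libraries 1 to 5, against 67.5, 76.6, 51.7 and 70.7 CPM in wild type libraries 1 to 4. Every cKO library lay below every wild type library, and edgeR's quasi-likelihood test gave a log2 fold change of -2.06 with an SE of 0.18 and an adjusted p of 1.69e-05. Total counts per library were 18.6 to 45.6 M (M, 1e6) in cKO and 13.8 to 25.3 M in wild type. Genes with at least 1 count numbered 15364 to 16757 in cKO libraries and 12396 to 13372 in wild type libraries. The groups were also apart after thinning all libraries to 13814799 counts, with 14669 to 15783 genes in cKO and 12396 to 13267 in wild type. The part of this in the replication gene values was not tested. Alveolar macrophage markers were present in all libraries, with Siglecf at 418 ± 51.4 CPM (SD, n = 5) in cKO and 451 ± 39.2 CPM (SD, n = 4) in wild type. Of the 12 alveolar macrophage markers, 2 were higher in cKO libraries, against 8.97% of all tested genes, and 3 lower, against 11%. Marco (log2 fold change 0.54) and Lpl (0.60) were higher, and Fabp1 (-1.73), Car4 (-0.96) and Krt79 (-0.53) were lower. The summed level of the 12 was 16671 to 42626 CPM in cKO libraries and 23717 to 61959 CPM in wild type libraries. Of the other markers, Apoe of 9 for monocytes and interstitial macrophages and Csf3r of 5 tested for neutrophils were higher, Hopx of 8 for epithelium was lower, and none of those tested for lymphocytes (3), endothelium (3), fibroblasts (4) or erythroid cells (4) passed the test. Summed over all listed genes, the lymphocyte, endothelial and fibroblast markers were at 14.4 CPM or less in every library.

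Few replication genes passed the test, and most lay below wild type. At an adjusted p under 0.05, 8 of 52 were lower (15.4%), against 11% of all tested genes, and 0 were higher, against 8.97% of all tested genes. The fold changes of 48 of the 52 were below 0, against 46% of all tested genes, and the median over the 52 was -0.28 on the log2 scale, against 0.04 over all tested genes. The 4 above 0 were Orc1, Pola2, Blm and E2f8, and none of these passed the test. In 7 genes every cKO library lay below every wild type library (13.5%, against 9.87% of all tested genes), and in 0 genes did every cKO library lie above (against 10.9%). At an unadjusted p under 0.05 there were 19 genes (36.5%), against 32.1% of all tested genes. DESeq2 called 13 lower (25%), against 12.6% of all tested genes, and 0 higher, against 11.1%. The 13 held all 8 of the edgeR calls, and also Cdt1, Mcm4, Mcm7, Prim1 and Ccne2, at adjusted p of 0.0294 to 0.0496 in DESeq2.

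With libraries scaled by their totals alone, the median over all tested genes moved to 0.15 on the log2 scale, in place of 0.04, while over the replication genes it was -0.16, 40 of 52 lay below 0 (against 34.6% of all tested genes), and 4 were lower (Orc6, Gins2, Pcna and Tyms). The 4 lower genes were 7.69% of the 52, against 7.89% of all tested genes. Under that scaling 65.9% of all calls were higher, against 44.98% with the main scaling. Without wild type library 1 also 4 were lower, again Orc6, Gins2, Pcna and Tyms, against 8.87% of all tested genes. No alternative that was run, another normalization, filter, test, depth, correction or library left out, called any of the 52 higher.

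**Figure D1:**
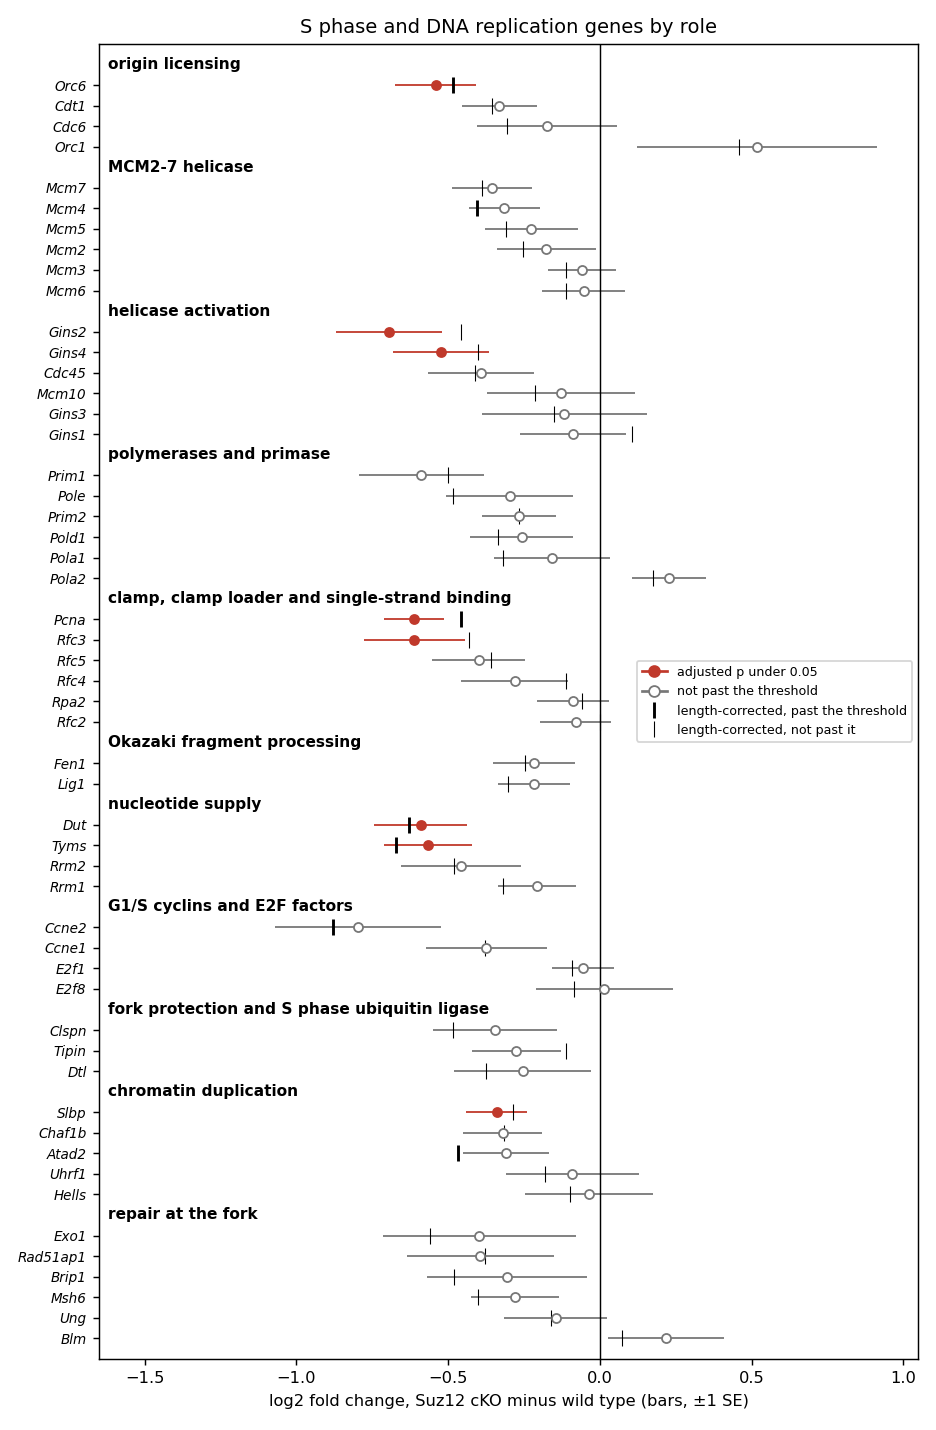
Log2 fold change (Suz12 cKO minus wild type, x axis) of all 52 genes, grouped by role, with bars of ±1 SE; red points passed an adjusted p of 0.05, and black ticks give the length-corrected value. All but 4 points lie left of 0, and the 8 red ones lie between -0.69 and -0.34.

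Length of the counted gene moved with genotype across the whole table and bears on this group. With tested genes split by length into 10 equal bins, the shortest bin (62 to 970 bases) had a median of -0.42 on the log2 scale and the longest (6045 to 83437 bases) one of 0.14. The replication genes had a median length of 2692 bases, close to the 2714 bases of all tested genes, but the 8 lower ones had a median of 1497.5 bases, and 7 of the 8 were among the shorter 26 of the 52. A second fit therefore entered a curve of each library's deviation on gene length as a correction. In it 7 of 52 were lower, against 9.35% of all tested genes, and 0 were higher, against 6.74%. Of the 52, 48 again lay below 0, against 49.4% of all tested genes, and the median was -0.32, against 0.006 for all tested genes. Pcna, Orc6, Tyms and Dut were lower in both fits, Gins2, Rfc3, Slbp and Gins4 without the correction only, and Mcm4, Ccne2 and Atad2 with it only. With the correction, 4 of 52 were lower without cKO library 5, against 882 of 12651 tested genes. Without cKO library 2 there were 5, against 853 of 12595 tested genes, and without wild type library 4 there were 5, against 945 of 13227.

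**Figure D2:**
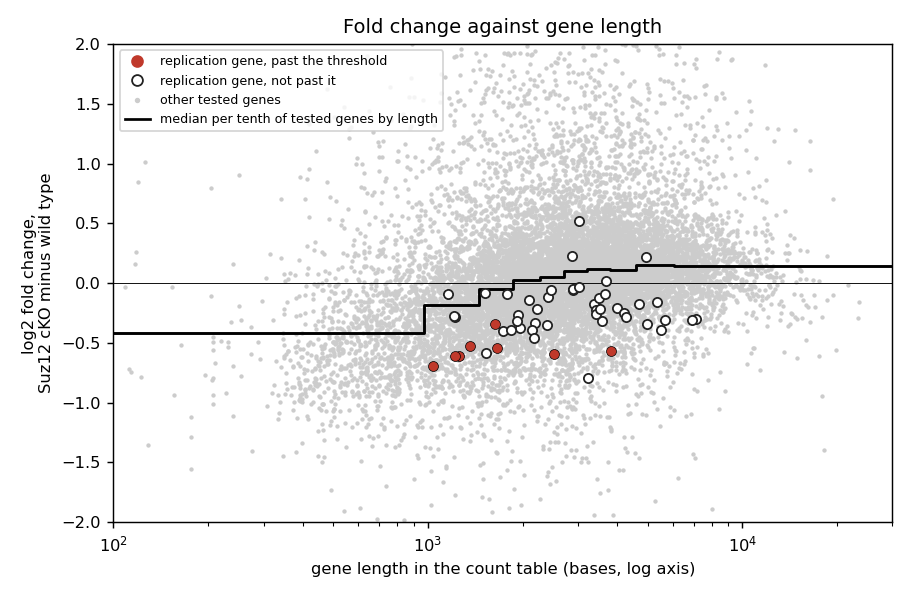
Log2 fold change (Suz12 cKO minus wild type, y axis) against gene length in the count table (x axis, log scale), for replication genes and other tested genes; the black line is the median of each of 10 bins by length, and genes beyond ±2 are not drawn. The line climbs with length, and 7 of the 8 red points lie in the shorter part of the group.

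Of the 4 origin licensing genes, 1 was lower and their median log2 fold change was -0.25. Orc6, the smallest subunit of the origin recognition complex (chromosome 8, positions 85299632 to 85308279 of GRCm38.p6), was at 26.8, 23.7, 19.8, 25.5 and 20.5 CPM in cKO libraries, against 32.5, 32.4, 40.1 and 30.5 CPM in wild type libraries. All cKO libraries were below all wild type libraries. The log2 fold change was -0.54 (SE 0.13, adjusted p = 0.0108), and -0.48 with the length correction (adjusted p = 0.0211). Cdt1, which brings the helicase to the origin and was the most abundant of the 4 per length, was at 53.2, 43.7, 36.1, 44.7 and 44.2 CPM in cKO and at 51.3, 65.9, 49.9 and 56.1 CPM in wild type. Its groups overlapped through cKO library 1, and it did not pass the test (-0.33, adjusted p = 0.075). Cdc6, the loading ATPase, had a log2 fold change of -0.17 (adjusted p = 0.652). Orc1, the largest ORC subunit, was the least abundant of all 52 per length in wild type and, after Exo1, the next lowest in cKO. It was at 4.03 ± 1.31 CPM in cKO (SD, n = 5) and 2.79 ± 1.07 CPM in wild type (SD, n = 4). The log2 difference was 0.52 with an SE of 0.40 (adjusted p = 0.406). Orc1 and Orc6 thus lay on opposite sides of 0, though a difference between them was not tested, and the Orc1 span overlaps the counted gene Prpf38a.

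None of the 6 MCM2-7 subunits, the ring that unwinds DNA, passed the test in edgeR's main fit, without the length correction. Their median log2 fold change was -0.20. DESeq2 called Mcm4 (adjusted p = 0.0496) and Mcm7 (0.0448), and edgeR called Mcm7 without cKO library 1 (0.0369). Mcm4 was at 95.7, 82.5, 62.0, 96.1 and 79.4 CPM in cKO libraries, against 99.99, 110.3, 103 and 100.1 CPM in wild type libraries. The groups did not overlap, and the 4 wild type libraries lay close together. Its log2 fold change was -0.31 (SE 0.12, adjusted p = 0.0741), and with the length correction -0.40 (adjusted p = 0.0234). Mcm7, the most abundant subunit per length in wild type and the third in cKO (39.1 CPM per kb, below Mcm3 at 43.9 and Mcm6 at 42.2), was at 115, 89.5, 66.2, 102 and 96.1 CPM in cKO, against 128, 107, 113 and 132 CPM in wild type. The groups overlapped through cKO library 1, and it did not pass either fit (-0.35, adjusted p = 0.076, and 0.0538 with the correction). The Mcm7 span also holds Ap4m1 and 3 microRNA genes. Mcm5 (-0.23), Mcm2 (-0.18), Mcm3 (-0.06) and Mcm6 (-0.05) did not pass either fit. Without cKO library 3 the log2 fold changes of Mcm3 and Mcm6 were 0.02 and 0.07, and the median of the 6 was -0.07. The subunits form a ring with 1 copy of each, and in wild type libraries their levels per length ran between 24.8 ± 3.32 CPM per kb (Mcm2) and 50.01 ± 4.91 CPM per kb (Mcm7; SD, n = 4).

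Among the 6 helicase activation genes, 2 subunits of GINS were lower. Gins2 (chromosome 8, positions 120581266 to 120589075) was at 31.5, 23.6, 15.6, 28.2 and 22.5 CPM in cKO libraries, against 36.9, 35.4, 46.3 and 38.6 CPM in wild type libraries. The groups did not overlap, and cKO library 3 was lowest. The log2 fold change of -0.69 (SE 0.17, adjusted p = 0.0123) was the lowest of the 8 called genes, and with the length correction it was -0.46 (adjusted p = 0.0935). Gins2 is also the shortest of the 52, at 1038 bases. Its span overlaps Gse1, at 67.9 CPM in cKO and 53.5 CPM in wild type on average, and no source used here says whether counting used strand. Gins4 was at 39.9, 31.0, 37.5, 42.8 and 33.8 CPM in cKO, against 62.7, 40.1, 42.8 and 67.0 CPM in wild type. Wild type libraries 2 and 3 lay at the upper end of the cKO values, and libraries 1 and 4 stood well above them. Its log2 fold change was -0.52 (SE 0.16, adjusted p = 0.0315), and the adjusted p was 0.0841 with the length correction and 0.076 to 0.123 with cKO library 2 or 5 or a wild type library (1 or 4) left out.

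The other GINS subunits had values much closer to wild type. Gins1 was at 15.9 ± 1.86 CPM in cKO (SD, n = 5) and 16.9 ± 4.04 CPM in wild type (SD, n = 4), with a log2 fold change of -0.09 (adjusted p = 0.772) and of 0.10 with the length correction. Gins3 was at 5.78 ± 0.881 CPM in cKO and 6.24 ± 2.30 CPM in wild type (-0.12, adjusted p = 0.811). Per length, GINS transcripts were unequal within each group, with 27.1 and 39.0 CPM per kb of Gins4 (cKO and wild type means), 23.4 and 37.9 of Gins2, 13.7 and 14.6 of Gins1, and 2.40 and 2.59 of Gins3. Cdc45, the partner of GINS on the helicase, had a log2 fold change of -0.39 (adjusted p = 0.136), and the replication initiation factor Mcm10 one of -0.13 (adjusted p = 0.766). The Cdc45 span overlaps Ufd1.

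Of the 6 polymerase and primase genes, 0 passed the test in either fit, and the median log2 fold change was -0.26. Prim1, the catalytic primase subunit, came nearest. It was at 27.2, 19.8, 12.2, 22.9 and 19.6 CPM in cKO libraries, against 34.5, 23.5, 37.7 and 26.8 CPM in wild type libraries. Only cKO library 1 reached above the lower wild type values, and the log2 fold change was -0.59 (SE 0.21, adjusted p = 0.0586, and 0.119 with the length correction). Prim2, the large primase subunit and the most abundant of the 6 per length, was at 39.6, 32.6, 29.1, 34.8 and 31.9 CPM in cKO and at 41.1, 39.4, 34.8 and 46.4 CPM in wild type (-0.27, adjusted p = 0.147). Pola2, the accessory subunit of polymerase alpha, lay above 0 at 0.23 (SE 0.12, adjusted p = 0.219) and cKO library 3 did not stand apart for it, at 39.3 CPM beside 36.9 to 46.5 CPM in the other cKO libraries. The catalytic subunits of polymerases alpha (Pola1, -0.16), delta (Pold1, -0.26) and epsilon (Pole, -0.30) did not pass. Pole was the least abundant of the 6 per length, at 2.87 ± 0.761 CPM per kb in cKO (SD, n = 5) and 3.52 ± 0.686 CPM per kb in wild type (SD, n = 4).

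**Figure D3:**
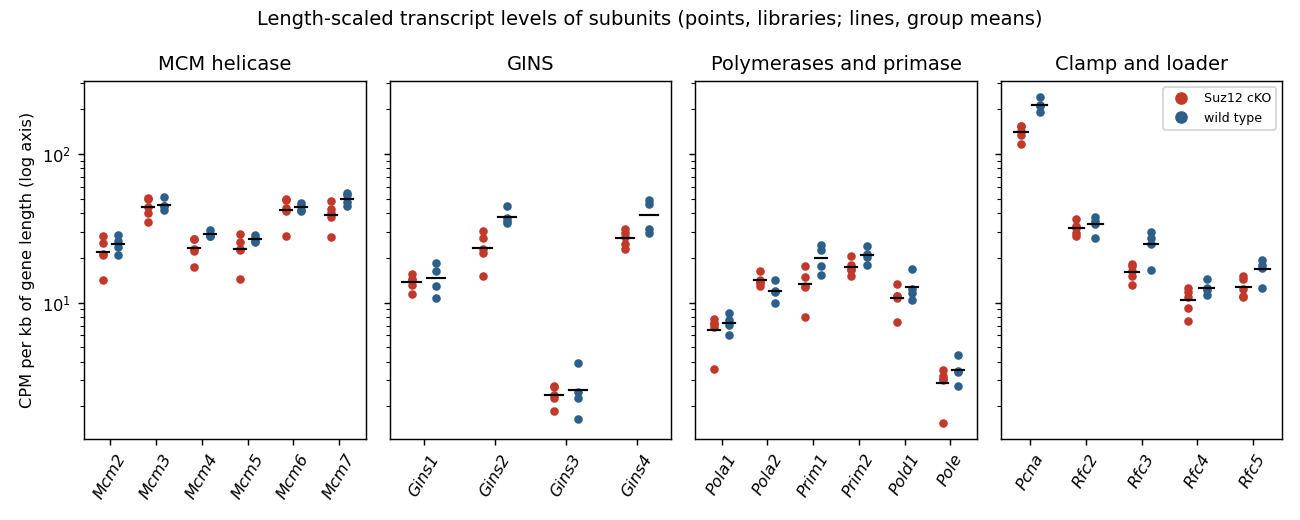
Length-scaled levels (CPM per kb of gene length, log axis) of the MCM, GINS, polymerase and primase, and clamp and loader genes, with a point per library and lines at group means, Suz12 cKO left of wild type. Pcna stands above all others, at 140.4 CPM per kb in cKO and 214 in wild type, and Gins3 and Pole lie lowest.

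Pcna, the sliding clamp that tethers polymerases to DNA (chromosome 2, positions 132249286 to 132253180), was the replication gene with the smallest adjusted p and the most abundant of the 52 per length. It was at 195, 169, 146, 194 and 181 CPM in cKO libraries, against 270.2, 242, 266 and 303 CPM in wild type libraries. The highest cKO library was below the lowest wild type library. Pcna averaged 177 ± 20.2 CPM in cKO (SD, n = 5) and 270.3 ± 25.3 CPM in wild type (SD, n = 4). The log2 difference was -0.61, with an SE of 0.10 and an adjusted p of 7.45e-04 by edgeR. It was -0.46 with the length correction (adjusted p = 0.00591) and -0.54 without cKO library 3.

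The clamp is loaded by replication factor C, of which 4 small subunits were among the 52 and 1 was lower. Rfc3 (chromosome 5, positions 151642817 to 151651208) was at 22.1, 21.4, 15.9, 19.8 and 18.3 CPM in cKO, against 36.01, 20.1, 33.2 and 30.1 CPM in wild type. Wild type library 2 lay among the cKO libraries, and the other wild type libraries lay above them. Its log2 fold change was -0.61 (SE 0.17, adjusted p = 0.019), with an adjusted p of 0.0846 after the length correction and of 0.0709 without wild type library 1. Rfc5 (-0.40, adjusted p = 0.0847), Rfc4 (-0.28, adjusted p = 0.306) and Rfc2 (-0.08, adjusted p = 0.686) did not pass, and the most abundant per length was Rfc2, at 31.7 CPM per kb in cKO and 33.5 in wild type. Rpa2, a subunit of the single-strand binding protein RPA, had a log2 fold change of -0.09 (adjusted p = 0.657). Rfc4 shares part of its span with Eif4a2.

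**Figure D4:**
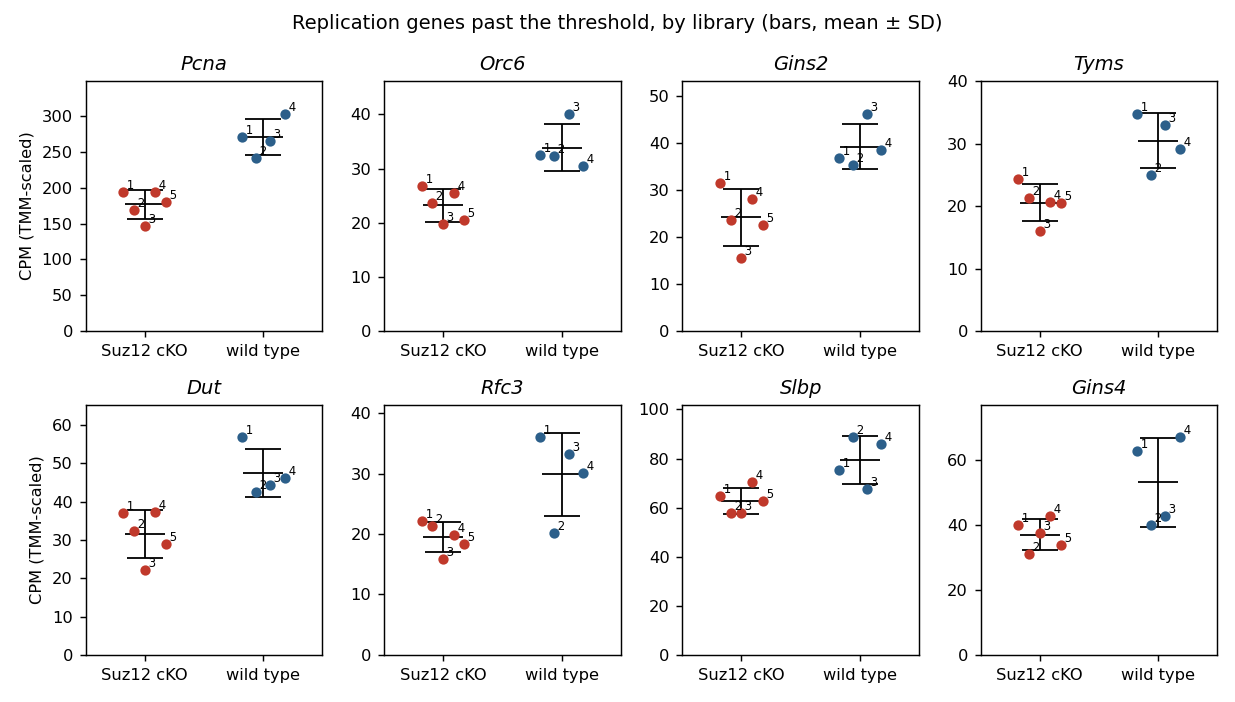
CPM in each library (points, numbered by library) for the 8 genes lower at an adjusted p of 0.05, with mean ± SD, Suz12 cKO left of wild type. The groups are apart for Pcna, Orc6, Gins2, Tyms and Dut, and they overlap for Rfc3, Slbp and Gins4.

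Joining of the lagging strand fragments was represented by Fen1, which trims flaps, and Lig1, the ligase that seals nicks. Fen1 was at 49.1, 41.0, 42.0, 42.9 and 38.2 CPM in cKO, against 36.4, 50.2, 51.7 and 59.9 CPM in wild type. Lig1 was at 63.9, 54.5, 44.0, 60.7 and 55.8 CPM in cKO, against 64.7, 63.6, 56.3 and 74.3 CPM in wild type. The groups overlapped for both, and both had a log2 fold change of -0.22 (adjusted p = 0.296 for Fen1 and 0.23 for Lig1). Both overlap another counted gene, Tmem258 for Fen1 and Zswim9 for Lig1.

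Nucleotide supply had the lowest median of the roles, -0.51 over 4 genes, with 2 lower in both fits. Tyms, the enzyme that makes thymidylate (chromosome 5, positions 30038546 to 30073645), was at 24.4, 21.3, 16.0, 20.7 and 20.5 CPM in cKO libraries, against 34.8, 25.0, 33.1 and 29.2 CPM in wild type libraries. The groups did not overlap, although cKO library 1 and wild type library 2 were close. The log2 fold change was -0.57 (SE 0.15, adjusted p = 0.0135), and -0.67 with the length correction (adjusted p = 0.00683). A pseudogene row, Tyms-ps, held 3.28 to 4.94 CPM in cKO and 3.66 to 7.03 CPM in wild type, so reads could have been split between the copies.

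Dut, which removes dUTP and yields the substrate of Tyms (chromosome 2, positions 125247248 to 125259049), was at 37.2, 32.4, 22.2, 37.2 and 29.0 CPM in cKO, against 56.8, 42.7, 44.3 and 46.3 CPM in wild type. All cKO libraries were below all wild type libraries. Its log2 fold change was -0.59 (SE 0.15, adjusted p = 0.0142), and -0.63 with the length correction (adjusted p = 0.0101). The adjusted p was 0.0588 without wild type library 1 and 0.0512 with libraries scaled by totals alone. The subunits of ribonucleotide reductase, which makes deoxyribonucleotides, did not pass. Rrm2, the small subunit, was at 111, 80.5, 45.4, 98.5 and 73.4 CPM in cKO, against 119, 115, 105 and 109 CPM in wild type (-0.46, SE 0.20, adjusted p = 0.133). Its cKO libraries spread far more widely than its wild type libraries, with SDs of 25.1 CPM (n = 5) and 6.19 CPM (n = 4). Rrm1, the large subunit, had a log2 fold change of -0.21 (adjusted p = 0.303).

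Among the regulators of S phase entry, 0 of 4 passed in edgeR's main fit, without the length correction. Ccne2, a cyclin E that activates CDK2, had the lowest log2 fold change of all 52, -0.80, with a wide SE of 0.27. It was at 8.56, 8.11, 4.49, 7.77 and 7.17 CPM in cKO libraries, against 10.5, 7.13, 18.9 and 13.8 CPM in wild type libraries. Wild type library 2 lay within the cKO range, and wild type library 3, at 18.9 CPM, lay far above it. The adjusted p was 0.0558, and 0.0456 with the length correction. It was 0.0294 with DESeq2 and 0.0145 by edgeR without wild type library 2. Ccne1, the other cyclin E, had -0.37 (adjusted p = 0.216). E2f1, an activator of S phase genes and the most abundant of the 4 per length, was at 65.7, 56.0, 54.0, 53.0 and 52.3 CPM in cKO and at 64.8, 56.3, 52.5 and 60.01 CPM in wild type (-0.06, SE 0.10, adjusted p = 0.756). E2f8, a repressor among the E2F factors, had 0.01 (adjusted p = 0.974). Ccne2 overlaps Ints8, and E2f1 overlaps Necab3.

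The 3 genes of fork protection and of the S phase ubiquitin ligase did not pass either fit. Clspn, an adaptor of the replication checkpoint, had a log2 fold change of -0.35 (adjusted p = 0.271), Tipin, a fork protection factor, one of -0.28 (adjusted p = 0.218), and Dtl, which directs CDT1 and other proteins to degradation at PCNA, one of -0.25 (adjusted p = 0.481). Tipin, the most abundant of the 3 per length, was at 28.0, 23.6, 23.0, 30.4 and 25.6 CPM in cKO and at 35.8, 30.5, 23.3 and 36.6 CPM in wild type, with overlap through wild type library 3. Dtl overlaps Ints7.

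Chromatin is rebuilt behind the fork, and 1 of these 5 genes was lower. Slbp, which binds the stem-loop of histone mRNAs (chromosome 5, positions 33640055 to 33652574), was at 64.6, 57.9, 57.7, 70.4 and 62.8 CPM in cKO, against 75.2, 88.6, 67.5 and 85.7 CPM in wild type. The groups overlapped between cKO library 4 and wild type library 3. Its log2 fold change was -0.34 (SE 0.10, adjusted p = 0.0298), the least far from 0 of the 8, and the adjusted p was 0.0787 with the length correction and 0.0504 to 0.0956 without cKO library 1, 2, 3 or 5 or wild type library 1, 2 or 4. Atad2, a chromatin ATPase with a bromodomain, was at 103, 98.4, 60.4, 98.9 and 96.3 CPM in cKO, against 108, 136, 105 and 103 CPM in wild type. Its groups did not overlap, though cKO library 1 and wild type library 4 were nearly equal, and it was lower with the length correction (-0.47, adjusted p = 0.021) and not without it (-0.31, adjusted p = 0.15). Chaf1b, a subunit of the histone chaperone CAF-1, had -0.32 (adjusted p = 0.101). Uhrf1, which brings the maintenance methyltransferase to new DNA, had -0.09 (adjusted p = 0.817), and the remodelling ATPase Hells -0.04 (adjusted p = 0.929).

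The 6 repair genes did not pass either fit, with a median of -0.29. Msh6, which recognises mismatches, had -0.28 (adjusted p = 0.201), the recombination factor Rad51ap1 -0.39 (adjusted p = 0.293), the exonuclease Exo1 -0.40 (adjusted p = 0.429), the helicase Brip1 -0.31 (adjusted p = 0.466) and the uracil glycosylase Ung -0.15 (adjusted p = 0.602). Rad51ap1, the most abundant of the 6 per length in wild type and below Ung and Msh6 in cKO, was at 16.6, 11.8, 6.49, 13.9 and 9.91 CPM in cKO and 17.7, 16.8, 11.1 and 15.9 CPM in wild type, with overlapping groups. Blm, a helicase that resolves recombination intermediates, lay above 0 at 0.22 (adjusted p = 0.471). Its cKO library 3 stood at 9.56 CPM, against 15.0 to 16.6 CPM in the other cKO libraries and 10.3 to 14.5 CPM in wild type. Ung overlaps Alkbh2 and Msh6 overlaps Fbxo11.

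The cKO libraries were unequal. Library 3 had the lowest value of all 9 libraries in 42 of the 52 genes (80.8%), against 12.7% of all tested genes, and the lowest of the 5 cKO libraries in 46 of 52 (88.5%), against 30.1% of all tested genes. Relative to the wild type mean of each gene, the median level over the 52 was 98.8%, 84.4%, 57.8%, 89.9% and 79.5% in cKO libraries 1 to 5, and 98.7%, 100.6%, 97.6% and 100.7% in wild type libraries 1 to 4. The summed level was 2504, 2100, 1571, 2349 and 2069 CPM in cKO libraries, against 2581, 2604, 2496 and 2651 CPM in wild type libraries. The wild type libraries agreed to within a narrow range, cKO library 1 reached into that range, and the others lay below it. The mean sum was 2119 ± 355 CPM in cKO (SD, n = 5), 2255 ± 208 CPM in cKO without library 3 (SD, n = 4) and 2583 ± 64.9 CPM in wild type (SD, n = 4).

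Library 3 held 38.0 M counts, within the depths of the other cKO libraries, and its Suz12 level was the highest of the cKO group. Its summed monocyte and interstitial macrophage markers were at 4051 CPM, against 2490 to 2843 CPM in the other cKO libraries and 1953 to 2184 CPM in wild type. Mrc1 held 2171 CPM of that sum, close to the 2055 to 2197 CPM of the other cKO libraries, and Apoe 1868 CPM, against 332 to 587 CPM in the other cKO libraries, while C1qa was at 1.23 CPM, C1qb at 0.614 CPM and Cx3cr1 at 0.481 CPM in library 3. Its neutrophil markers summed to 186 CPM, against 70.2 to 105 CPM in the other cKO libraries and 67.2 to 86.2 CPM in wild type, of which S100a8 held 100.7 CPM and Csf3r 72.8 CPM, the highest of all 9 libraries for each. Mmp8, another neutrophil marker, went the other way, at 6.11 CPM in library 3, the lowest of all 9 libraries. It was at 12.5 to 26.4 CPM in the other cKO libraries and 16.2 to 43.3 CPM in wild type. Ly6g was at 0 in library 3 and in 8 of the 9 libraries. Erythroid markers were at 311 CPM in library 3 and 291 CPM in cKO library 2, against 23.5 to 31.7 CPM in the other cKO libraries and 24.6 to 116 CPM in wild type. Alveolar macrophage markers summed to 42626 CPM in library 3, mostly Chil3 at 32245 CPM. Among cKO libraries it was lowest for Itgax (641 CPM), Car4 (317), Fabp1 (22.5), Krt79 (204), Pparg (255) and Plet1 (784) and highest for Chil3 and Ear2 (4045), and Lpl (2640), Marco (773), Siglecf (394) and Cidec (305) lay within the range of the other cKO libraries. Their part in the replication gene values was not tested. Without library 3, 7 of 52 genes were lower (13.5%, against 11.1% of all tested genes), all 7 among the 8 above. Of the 52, 42 lay below 0, against 45.7% of all tested genes, and the median was -0.19. Slbp was the gene lost (adjusted p = 0.0599), and with the length correction 7 were again lower, against 9.4% of all tested genes, with a median of -0.23.

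**Figure D5:**
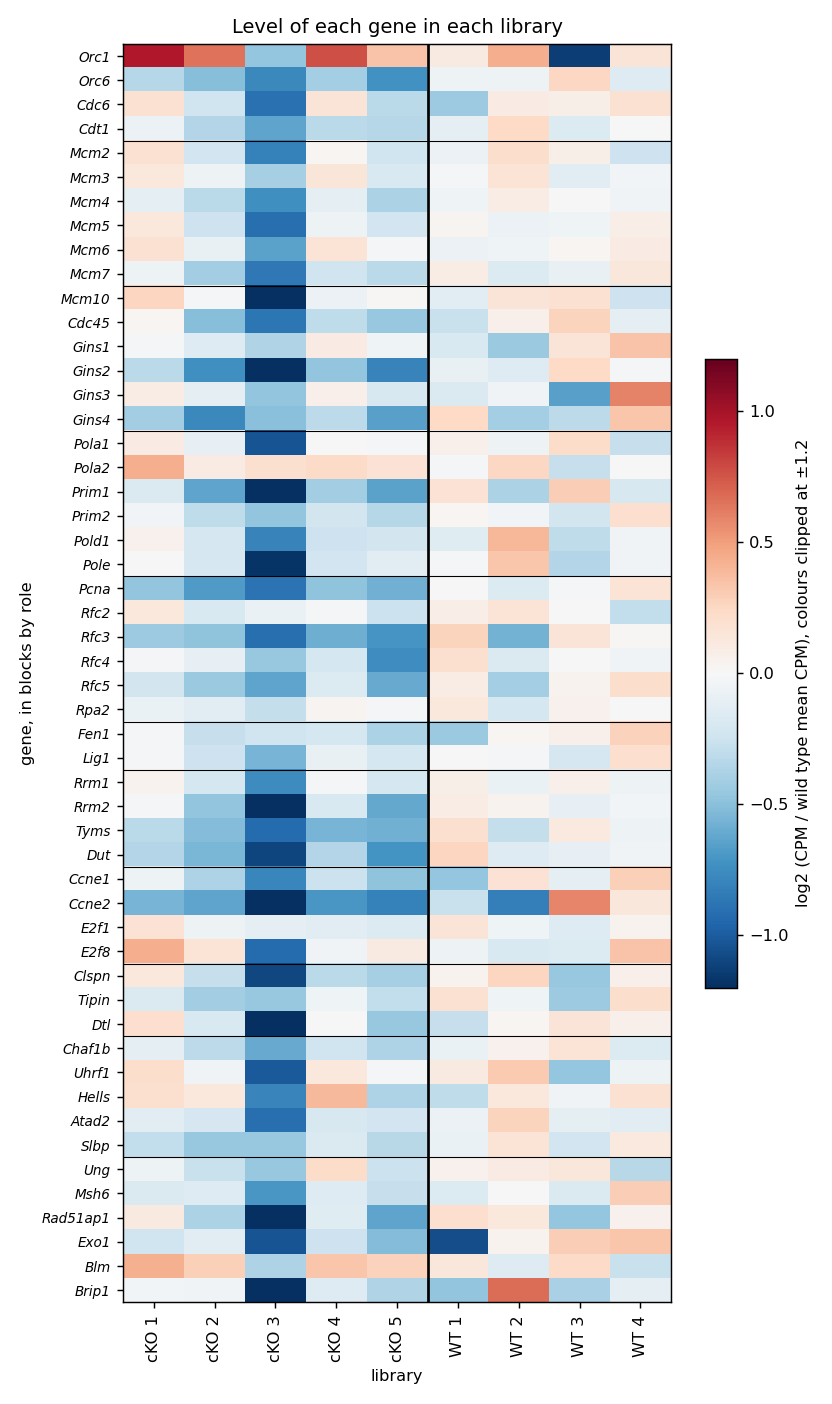
Level of each of the 52 genes (rows, in blocks by role) in each library (columns, Suz12 cKO left of wild type) as log2 of CPM over the wild type mean, with colours clipped at ±1.2. The column of cKO library 3 is blue in nearly every row, and that of cKO library 1 is close to white for many genes.

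Replication factors outside the 52 gave a mixed picture. Of 36 further factors, 5 were lower, against 11% of all tested genes, and 1 was higher, against 8.97%. Their median log2 fold change was -0.02, against 0.04 over all tested genes. The lower ones were Rpa3, the small subunit of RPA, at 19.0 ± 2.77 CPM in cKO (SD, n = 5) and 34.9 ± 3.85 CPM in wild type (SD, n = 4; -0.88), the licensing inhibitor Gmnn (-0.63), the polymerase epsilon subunit Pole4 (-0.61), and the RNase H2 subunits Rnaseh2a (-0.53) and Rnaseh2c (-0.44). The helicase and nuclease Dna2 was higher (0.42, adjusted p = 0.0461). With the length correction 6 were lower, against 9.35% of all tested genes, and 2 higher, against 6.74%. The values of Rpa3 and Gmnn, 638 and 977 bases long, were -0.46 and -0.38 with it (adjusted p = 0.0219 and 0.0495). Rnaseh2c and Dna2 were then not called, Orc4 (-0.34) and Chtf18 (-0.78) were lower, and Pold2 (0.52) and Pole3 (0.45) were higher. Pole3, 602 bases long, averaged 20.5 CPM in cKO and 20.2 CPM in wild type. Without the correction its log2 fold change was 0.02 (adjusted p = 0.945). The adjusted p of Rnaseh2c was 0.0708 to 0.0868 without cKO library 1, 2 or 5 or wild type library 4, and that of Dna2 was 0.0794 to 0.113 without cKO library 1, 2, 4 or 5 or wild type library 1, 3 or 4. In cKO library 3, 16 of the 36 had their lowest value of all 9 libraries, against 12.7% of all tested genes.

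Several nucleotide supply genes outside the 52 were lower. Of 15, 7 were lower, against 11% of all tested genes, and 0 higher, against 8.97%, with a median of -0.24. With the length correction 5 of these 7 were lower, against 9.35% of all tested genes. The 7 included the thymidine kinase Tk1, at 43.4 ± 11.2 CPM in cKO (SD, n = 5) and 65.3 ± 4.36 CPM in wild type (SD, n = 4; -0.59, and not called with the correction, adjusted p = 0.0661), the deoxycytidine kinase Dck (-0.48), the thymidylate kinase Dtymk (-0.50), the UMP/CMP kinase Cmpk1 (-0.68) and the IMP dehydrogenase Impdh2 (-0.41, adjusted p = 0.0654 with the correction). Nme1 (-0.61) and Nme2 (-1.01) encode nucleoside diphosphate kinases of similar sequence, and whether reads were shared between them was not tested. Without wild type library 1 the adjusted p was 0.0561 for Tk1, 0.0563 for Dck and 0.0589 for Impdh2. It was also 0.0511 for Tk1 without wild type library 4, 0.0541 for Dck without wild type library 2, and 0.0507 to 0.0608 for Impdh2 without cKO library 3 or 4 or wild type library 3.

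Other regulators of the passage into S phase went both ways. Of 28, 4 were higher, against 8.97% of all tested genes, and 1 was lower, against 11%. Cdkn1a, which encodes the CDK inhibitor p21, was at 329, 415, 287, 426 and 398 CPM in cKO, against 221, 239.9, 283 and 241 CPM in wild type, with no overlap between the groups (0.59, adjusted p = 0.00331). Cdkn2a, which encodes p16 and p19, was at 4.29, 9.03, 2.003, 3.37 and 3.64 CPM in cKO, against 0, 1.04, 0 and 0.463 CPM in wild type (3.46, adjusted p = 0.0126), and in library 3 both inhibitors were at their lowest among cKO libraries. Cyclin D2, Ccnd2 (0.39), and the CDK-activating phosphatase Cdc25a (0.38) were higher, and the CDK subunit Cks1b was lower (-0.63). With the length correction none of these was called, with -0.25 for Cks1b (757 bases long, adjusted p = 0.1801), 0.23 for Ccnd2 (adjusted p = 0.0536) and 0.29 for Cdc25a (adjusted p = 0.118). The adjusted p of Cdkn2a was 0.0502 without cKO library 2, and its log2 fold change was 4.64 without wild type library 2. The adjusted p of Cdc25a was 0.0521 to 0.0892 without any 1 of the cKO libraries or without wild type library 1. With the length correction Cdkn1a and Cdkn2a were again higher, and the pocket proteins Rb1 (-0.36) and Rbl1 (-0.45), which restrain E2F factors, were lower.

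G2 and mitosis markers, which mark the later part of the division cycle, were likewise lowest in cKO library 3. Of 20, 5 were lower, against 11% of all tested genes, and 0 higher, against 8.97%, with a median of -0.26. All 20 had their lowest value of the 9 libraries in cKO library 3, against 12.7% of all tested genes. Their summed level was 1496, 1186, 794, 1180 and 1138 CPM in cKO libraries, against 1412, 1433, 1282 and 1407 CPM in wild type libraries. The called ones were the mitotic kinase Cdk1 (-0.69, adjusted p = 0.00321), the B-type cyclins Ccnb1 (-0.56) and Ccnb2 (-0.39), the survivin gene Birc5 (-0.57) and the centromeric histone Cenpa (-0.57). With the length correction Cdk1, Ccnb1 and Birc5 were again lower, Ccnb2 (-0.31, adjusted p = 0.0877) and Cenpa (-0.42, adjusted p = 0.1003) were not, and Mki67 and the checkpoint kinase Bub1b (-0.26, adjusted p = 0.0469) were called. Mki67, the most used marker of cycling cells, was at 294, 225, 134, 213 and 228 CPM in cKO, against 274, 273, 250.03 and 315 CPM in wild type. Its groups overlapped through cKO library 1 (-0.35, adjusted p = 0.175, and -0.50 with an adjusted p of 0.0371 with the length correction). The adjusted p of Ccnb1 was 0.0559 to 0.0823 without cKO library 2, 3, 4 or 5 or wild type library 1 or 3, that of Ccnb2 was 0.05004 to 0.075 without cKO library 2 or 5 or wild type library 1, 2 or 4, and that of Cenpa was 0.0572 to 0.114 without cKO library 2, 3, 4 or 5 or wild type library 1, 3 or 4. Of these 20 markers, 2 were lower without cKO library 2 or 5 or wild type library 1, 3 without cKO library 3 or 4 or wild type library 3 or 4, 4 without wild type library 2 and 8 without cKO library 1. Over these fits, 1074 to 1521 of 12595 to 13246 tested genes were lower.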

How the data were processed

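The deposited files hold whole-number gene counts, made by the authors with featureCounts on mm10 per the submitters' processing notes, for 5 Suz12 cKO and 4 wild type libraries. No aligner, annotation release or strand setting is named in the sources used here. The 9 tables of single libraries equalled the joint table, which was used. A RefSeq gene table of GRCm38.p6 named 25275 of 27179 identifiers, and unnamed identifiers, 0.875% to 1.20% of counts in cKO and 2.75% to 4.43% in wild type, stayed in the library sizes.

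Counts were tested in R 4.3.3 with edgeR 4.0.16 (robust quasi-likelihood, TMM, filterByExpr), cKO against wild type without covariates, adjusted by the Benjamini-Hochberg method over the 12840 tested genes with a threshold of 0.05. CPM are per 1e6 of the TMM-scaled library, and CPM per kb divide by the deposited gene length. The length correction smoothed, per library, the deviations in log2 CPM against log2 length (loess, span 0.5), and the centred curve entered the fit as an offset. Steps were tested on simulated data. DESeq2 1.42.0, limma 3.58.1 voom, other filters and scalings, thinning to 13814799 counts, a replicate block and leaving out each library were alternatives.

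The genes, lists, named genes and alternatives were chosen with earlier results of these data known. The named genes were Suz12, the 52 genes and, of the further lists, every gene past the threshold. Where nothing shows separate animals, p-values measure only the spread between these libraries. The spans of 12 of the 52 genes overlap another counted gene, and of these Gins2/Gse1 is the only pair among the 8 lower genes.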

Additional observations from a re-analysis of the deposited data

Results flagged for a closer look

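In 104 groups of values (52 genes in both genotypes), the end library lay farther from its group than Dixon's 95% limit in 8, of which 6 were cKO library 3. Chance flags about 1 in 20 groups, and the genes are not independent.

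In cKO library 3, Pola1 was at 19.1 CPM, against 36.5 to 41.7 CPM in the other cKO libraries, and Pole at 11.1 CPM, against 21.4 to 25.0 CPM. Uhrf1 was at 26.9 CPM in this library and at 52.6 to 62.8 CPM in the others. Atad2 was at 60.4 CPM, against 96.3 to 103 CPM, Msh6 at 20.9 CPM, against 27.9 to 30.6 CPM, and Blm at 9.56 CPM, against 15.0 to 16.6 CPM. E2f1 in cKO library 1, at 65.7 CPM, lay above the 52.3 to 56.0 CPM of the other cKO libraries. Atad2 in wild type library 2, at 136 CPM, lay above the 103 to 108 CPM of the other wild type libraries.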

How the results depend on the processing

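Pcna and Tyms were lower under every alternative run, left-out libraries with and without the length correction included. Orc6 was lower under all but the replicate block fits and, with the length correction, the fits without cKO library 5 (adjusted p = 0.0602) or wild type library 3 (0.0524), and 0 of the 52 genes was higher under any. The count of 8 lower genes was 13 with DESeq2, 4 with library totals only, 5 with the replicate block and length correction, and 4 to 11 when leaving out 1 library at a time. With the length correction (7), it was 5 without cKO library 2, 4 without cKO library 5 and 5 without wild type library 4, and 4 to 10 over all libraries left out. Other replication factors (5 lower) gave 3 with TMM repeated after the length correction, an alternative added after seeing the data, and 3 with block and length correction. Other nucleotide supply genes (7 lower) gave 4 lower and 1 higher with library totals only. They gave 3 lower with TMM repeated after the length correction, 4 with block and length correction, and 4 to 7 when leaving out 1 library. G2 and mitosis markers (5 lower) gave 1 with library totals only, 2 with the block, 3 with block and length correction, and 2 to 8 when leaving out 1 library. Among all 12840 tested genes, 1409 were lower in the main fit, 1614 with DESeq2 and 1013 with library totals only. The number was 1103 with the block, 1103 with TMM repeated after the length correction, and 785 with block and length correction. When leaving out 1 library it was 1074 to 1521 of 12595 to 13246 tested genes, and 853 to 1258 with the length correction. Suz12 stayed between -1.95 and -2.26.

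Changes of sign concerned only genes called in neither fit. With library totals only, log2 fold changes were 0.056 for Mcm3, 0.068 for Mcm6, 0.04 for Gins1, 0.031 for Rfc2, 0.030 for Rpa2, 0.058 for E2f1, 0.022 for Uhrf1 and 0.085 for Hells. Gins1 was at 0.10 with the length correction, 0.13 with TMM repeated after it and 0.094 with block and length correction, and Rfc2 at 0.017 and 0.042 in those last 2 settings. E2f8 was at -0.028 with voom, -0.085 with the length correction, -0.064 with TMM repeated, -0.066 with the block and -0.16 with block and length correction, and Gins3 at 0.025 after thinning. Over the fits without 1 library, values ran from -0.11 to 0.022 for Mcm3, -0.12 to 0.069 for Mcm6, -0.25 to 0.062 for Mcm10, -0.21 to 0.055 for Gins1, -0.26 to 0.16 for Gins3, -0.23 to 0.0042 for Pola1, -0.12 to 0.0081 for E2f1, -0.11 to 0.18 for E2f8, -0.21 to 0.075 for Uhrf1, -0.16 to 0.11 for Hells and -0.43 to 0.016 for Brip1. The cause of these shifts was not tested.

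The correlation of deviations between libraries with the same number was 0.036, 0.032, -0.057 and 0.11, against -0.12 to 0.081 between libraries with different numbers. The value of 0.11, for the libraries numbered 4, was the highest of all pairs. The numbers were not taken to pair the libraries. With the number as a replicate block, 6 of the 52 were lower (Mcm7, Gins2, Gins4, Pcna, Tyms and Dut). Of all 12840 tested genes, 1103 were lower in that fit. The planned search for a PCNA-binding peptide was not run. Wild type library 3, with 13.8 M counts (M, 1e6), was the shallowest, and depth limits genes at a few CPM such as Orc1, Exo1 and Gins3.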
